A study of Mus musculus with 11 samples.

Results

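The 101 genes described here encode subunits and assembly factors of oxidative phosphorylation, measured in tissue captured from mouse embryos at E8.5. They were chosen by symbol alone: names starting with Nduf, Uqcr, Atp5, Sdha to Sdhd, or Cox followed by a digit. They are 101 of the 19938 genes that the platform annotation gives a probe of 1 symbol, and where a gene had several probes the one with the highest mean stood for it. By symbol, 43 belong to complex I, 8 to complex II, 8 to complex III, 25 to complex IV and 17 to complex V, and 82 are subunits and 19 assembly factors. Ndufa4 and Ndufa4l2 were kept under complex I by name, although Ndufa4 protein is known as a component of complex IV.

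There were 11 arrays, of which 3 held neuroepithelium, 5 neural crest and 3 paraxial mesoderm, all from outbred CD1 embryos that carried no stated mutation or treatment. The tissue was cut out of frozen sections by laser, and the RNA was amplified before it was hybridised to an Affymetrix mouse ST array. Labels tie no array to an embryo or to a number of cells, and the series text speaks of single cells, so p-values measure only the spread between these arrays, which may be technical. Were an array a single cell, a tissue would be 1 sample and the tests between tissues would be void. Each deposited value is a linear ratio of the array to a reference value of the same probe, with 0.01 as the lowest ratio in the table. The ratios hold no expression level: a gene at the same level on all arrays and a silent gene both sit near 1. Below, high and low mean at least 4-fold above and below that reference, and near means within 2-fold of it. In such tissue samples, fewer cells of a type and less RNA per cell cannot be told apart.

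The labels were checked against marker genes, of which only some marked their tissue. Of 10 neuroepithelium markers, 2 to 3 were high on each neuroepithelium array, 0 to 2 on each neural crest array and 0 to 2 on each paraxial mesoderm array, and Sox1, Sox3, Pax6, Cdh2 and Zic1 were near their reference on all 11 arrays. Of 10 neural crest markers, 1 to 5 were high on each neural crest array, 1 to 2 on each neuroepithelium array and 0 to 1 on each paraxial mesoderm array, and Tfap2a, Ets1 and Pax3 were near on all 11. Msx1 stood in both lists. It was high on the 3 neuroepithelium arrays (24.7, 46.1 and 7.97), neural crest array 3 (32.3) and paraxial mesoderm array 2 (34.9). On neuroepithelium array 1 and paraxial mesoderm array 2 it was the only crest marker that was high. One gene of each list separated its tissue: Epcam, an epithelial adhesion gene, was high on the 3 neuroepithelium arrays (41.9, 38.8 and 37.4) and near its reference elsewhere, and Snai1, a crest transcription factor, was high on the 5 neural crest arrays (41.2 to 82.1) and near elsewhere. All 10 paraxial mesoderm markers, Meox1, Tcf15 and Tbx6 among them, were near their reference on all 11 arrays, so the ratios give no positive check of that label. Of 7 surface ectoderm markers, 2 to 4 were high on each neuroepithelium array, and the keratin genes Krt8 and Krt18 on all 3 of them. Krt8 was also high on neural crest array 3 (36.3) and paraxial mesoderm arrays 2 (34.4) and 3 (30.5), and Krt18 (88.8) and Krt19 (65.0) on paraxial mesoderm array 2. All 6 markers of primitive erythrocytes were high on paraxial mesoderm array 1, with a summed ratio of 648.8, against 5.76 to 6.68 on the other arrays.

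Oxidative phosphorylation takes place in the inner mitochondrial membrane. Complexes I and II pass electrons from NADH and succinate to coenzyme Q, complex III passes them to cytochrome c, and complex IV passes them to oxygen, while complexes I, III and IV pump protons that drive ATP synthesis by complex V. Most subunits are encoded in the nucleus and some in mitochondrial DNA, and assembly factors insert cofactors or join subunits without staying in the finished complex.

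Most genes of this machinery left the 2-fold range around their reference on some array. Of the 101 genes, 12 (11.9%) were near it on all 11 arrays, against 71.8% of all genes. Those 12 were Ndufa13 and Ndufab1 of complex I, Uqcrq of complex III, Atp5g2 of complex V, and 8 genes of complex IV: Cox4i1, Cox6a1, Cox6a2, Cox7a2, Cox7b2, Cox8b, Cox8c and the assembly gene Cox15. At least 1 low array was found for 59 genes (58.4%), against 4.77% of all genes. At least 1 high array was found for 31 genes (30.7%), against 21.7% of all genes, and 8 genes (7.92%) were high on one array and low on another, against 1.5%. All genes include any that were silent on all arrays, which sit near 1 and are never low. Their number cannot be told from ratios. By role, 56 of 82 subunits were low on some array and 15 high on some, beside 4.77% and 21.7% of all genes. Of the 19 assembly genes, 3 were low and 16 high on some array. Neither high nor low on any array were 17 subunits and 2 assembly genes. This class was not counted over all genes. With 21.7% of all genes high on some array and 4.77% low on some, most of all genes were in it. The reference seems to be a middle value of 8 of these arrays. A gene down on a few arrays then counts as low, and one up on a few as high.

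**Figure D1:**
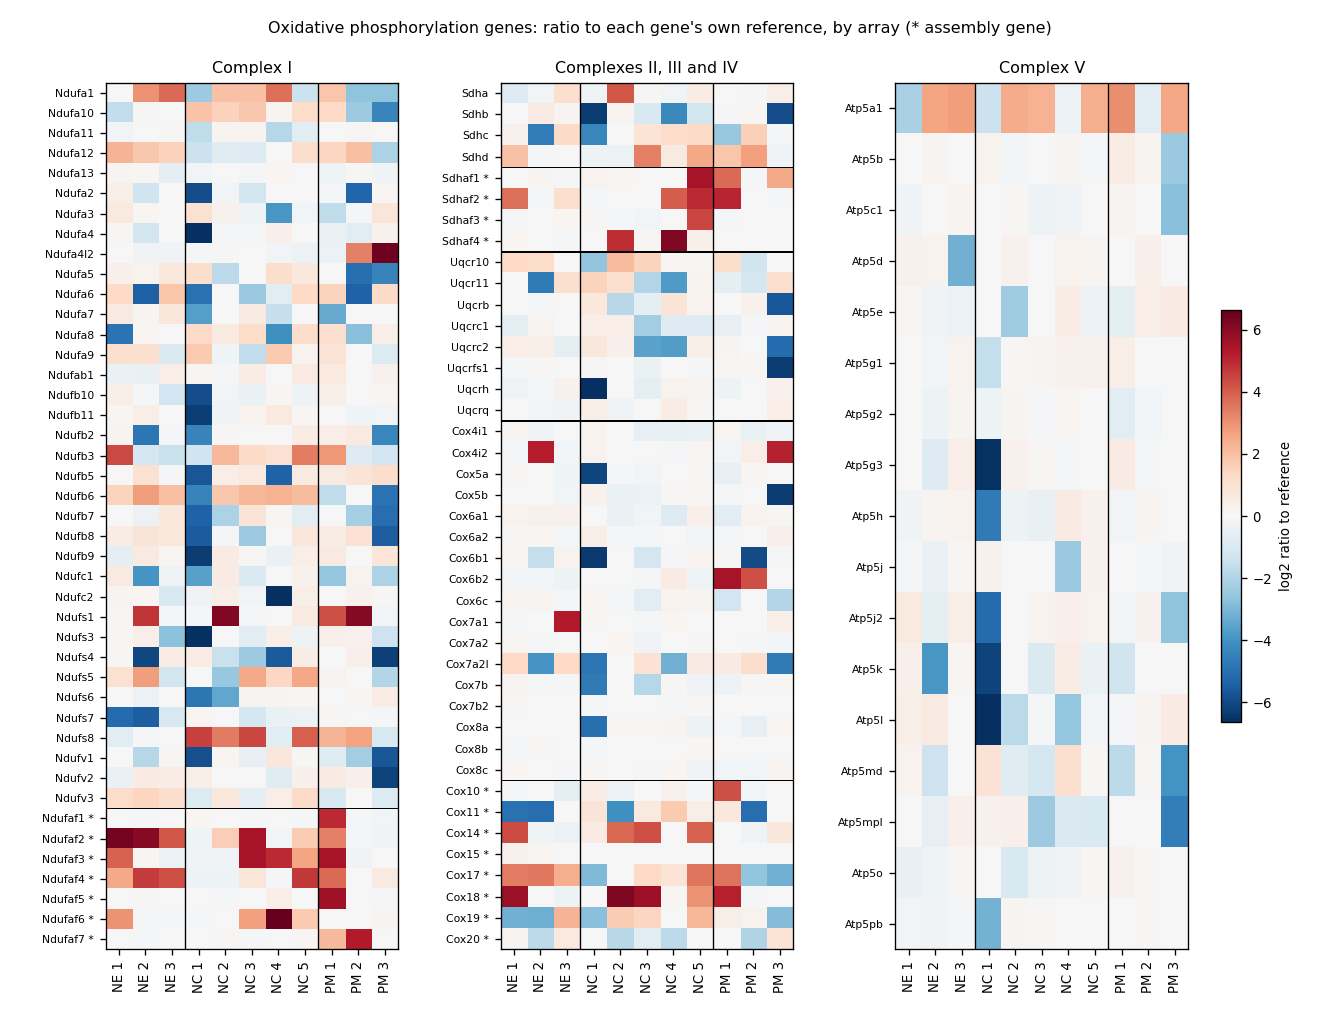
Colour gives the log2 ratio of each gene (rows, grouped by complex, assembly genes starred) to its own reference on each array (columns: NE neuroepithelium, NC neural crest, PM paraxial mesoderm, with the replicate number). Deep blue cells crowd in NC 1 and PM 3. The 19 starred rows hold 49 values at least 4-fold high, and the 82 other rows hold 45.

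Low values were spread unevenly over the arrays. In neuroepithelium 5, 11 and 2 of the 101 genes were low, against 0.757%, 2.03% and 0.507% of all genes on the same arrays. In neural crest 34, 5, 6, 11 and 0 were low, against 2.52%, 0.366%, 0.692%, 1.49% and 0.336% of all genes. In paraxial mesoderm 3, 11 and 25 were low, against 0.542%, 1.1% and 2.27% of all genes. Neural crest array 1 and paraxial mesoderm array 3 therefore held 59 of the 113 low values, and neural crest array 5 held 0. The mean number of low genes per array was 6 ± 4.58 (SD, n = 3) in neuroepithelium, 11.2 ± 13.3 (SD, n = 5) in neural crest and 13 ± 11.1 (SD, n = 3) in paraxial mesoderm, so the tissues overlapped widely. Neural crest array 1 and paraxial mesoderm array 3 also held the most low genes among all genes measured. Their part in the results was measured by leaving both out: 5.94% of the remaining values were low, against 0.869% over all genes, compared with 10.2% and 1.15% over all 11 arrays.

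**Figure D2:**
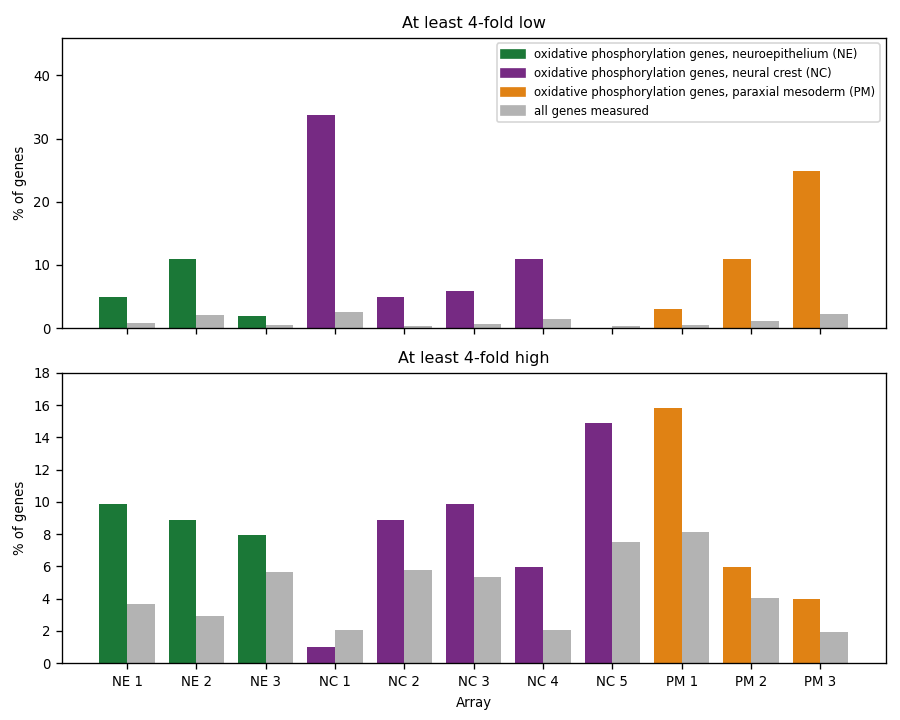
Bars give the percent of the 101 oxidative phosphorylation genes (coloured by tissue) and of all 19938 genes (grey) that were at least 4-fold low (top) or high (bottom) on each array. The coloured bar exceeds the grey one for low genes on 10 of 11 arrays, with the tallest at 33.7% on NC 1 and 24.8% on PM 3.

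Neural crest array 1 and paraxial mesoderm array 3 had overlapping but distinct sets of low genes. They shared 12 low genes, which were 35.3% of the 34 on the first and 48.0% of the 25 on the second. The shared genes were the complex I subunits Ndufa1, Ndufb2, Ndufb6, Ndufb7, Ndufb8, Ndufc1 and Ndufv1, the complex II subunit Sdhb, the complex IV genes Cox7a2l, Cox17 and Cox19, and the complex V subunit Atp5j2. Many of the low values were deep: 61 of 113 were under a ratio of 0.05 and 5 stood at the lowest ratio of 0.01. Those 5 were Ndufa4, Ndufs3, Uqcrh and Atp5l on neural crest array 1 and Ndufc2 on neural crest array 4.

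High values were uneven as well. In neuroepithelium 10, 9 and 8 of the 101 genes were high, against 3.69%, 2.91% and 5.63% of all genes. In neural crest 1, 9, 10, 6 and 15 were high, against 2.06%, 5.81%, 5.34%, 2.06% and 7.52%. In paraxial mesoderm 16, 6 and 4 were high, against 8.11%, 4.03% and 1.91%. The 15 on neural crest array 5 and the 16 on paraxial mesoderm array 1 were the most, and both arrays also had the most high genes overall. Of the 19 assembly genes, 9 were high on neural crest array 5 and 11 on paraxial mesoderm array 1, the array with the 6 high erythroid markers. The part of those cells in the counts was not tested. Without neural crest array 5 and paraxial mesoderm array 1, 17.0% of assembly gene values were high, against 3.71% over all genes, compared with 23.4% and 4.46% over all 11 arrays.

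By complex, the low share among subunits was 14.6% of the values of complex I, 13.6% of complex II, 11.4% of complex III, 5.35% of complex IV and 9.63% of complex V. The low share over all genes was 1.15%. The high share among subunits was 7.07% for complex I, 9.09% for complex II, 1.14% for complex III, 2.67% for complex IV and 3.74% for complex V. Over all genes 4.46% of values were high, so subunits of complexes III, IV and V lay below that share. Assembly genes were high in 28.6% of the values of complex I, 22.7% of complex II and 19.3% of complex IV, and all 11 of their low values belonged to the complex IV genes Cox11, Cox17 and Cox19. Without neural crest array 1 and paraxial mesoderm array 3 the low share of subunits was 8.95% for complex I, 8.33% for complex II, 6.94% for complex III, 1.96% for complex IV and 4.58% for complex V. For all genes on the remaining arrays it was 0.869%. These shares pool genes and arrays and were not tested against each other.

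**Figure D3:**
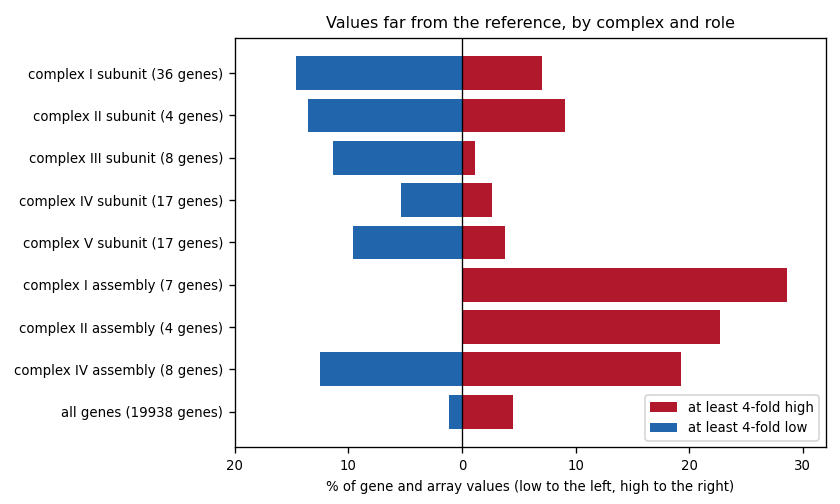
Bars give the percent of gene and array values at least 4-fold low (blue, to the left) or high (red, to the right) for each complex and role, with all 19938 genes at the bottom. Subunits of every complex reach further to the left than all genes (1.15%), and assembly genes reach further to the right (19.3% to 28.6% against 4.46%). Subunits of complexes III, IV and V reach less far to the right than all genes.

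Complex I is the largest complex and its subunits held 58 of the 113 low values. On neural crest array 1, 17 of its 36 subunits were low, and 12 on paraxial mesoderm array 3. The core subunits did not move together. Ndufv1, which holds the flavin site, was low on neural crest array 1 (0.0174), paraxial mesoderm array 2 (0.198) and paraxial mesoderm array 3 (0.0197) and lay between 0.271 and 1.68 on the other arrays. Its partner Ndufv2 was low on paraxial mesoderm array 3 alone (0.0141), and Ndufs3 was low on neuroepithelium array 3 (0.152) and neural crest array 1 (0.01).

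Other core subunits had high arrays instead. Ndufs1, the largest subunit, was high on neuroepithelium array 2 (27.3), neural crest array 2 (70.6), paraxial mesoderm array 1 (19.7) and paraxial mesoderm array 2 (68.9) and stayed between 0.878 and 1.52 on the other 7 arrays. Each tissue thus had both high and near arrays for Ndufs1. Ndufs8, a subunit with a pair of iron-sulphur clusters, was 0.622, 0.926 and 1 in neuroepithelium, 23.6, 10.8, 21.9, 0.625 and 15.8 in neural crest, and 4.72, 6.46 and 0.475 in paraxial mesoderm. It was high on 4 of 5 crest arrays and on none of neuroepithelium, but neural crest array 4 fell inside the neuroepithelium range, and the log2 difference of 3.42 ± 1.30 (SE) had an adjusted p = 1 in limma. It was the one gene of the 101 that was high on neural crest array 1.

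Accessory subunits of complex I, which surround the core, included the genes of that complex with the most low arrays. Ndufs4 was low on neuroepithelium array 2 (0.0150), neural crest arrays 3 (0.188) and 4 (0.0210) and paraxial mesoderm array 3 (0.0137). Ndufa6 was low on neuroepithelium array 2 (0.0230), neural crest arrays 1 (0.0323) and 3 (0.179) and paraxial mesoderm array 2 (0.0241). Both genes had a low array in every tissue. Ndufa8 was low on neuroepithelium array 1 (0.0332), neural crest array 4 (0.0595) and paraxial mesoderm array 2 (0.148), again 1 array of each tissue. Ndufb3 was high on neuroepithelium array 1 (21.3), neural crest arrays 2 (4.49) and 5 (10.5) and paraxial mesoderm array 1 (7.34), and low on none.

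Complex II, succinate dehydrogenase, also serves the citric acid cycle and is encoded wholly in the nucleus. Sdha, the flavoprotein, was 0.554, 0.897 and 2.18 in neuroepithelium, 0.850, 17.4, 1.06, 0.897 and 1.40 in neural crest, and 1, 0.949 and 1.34 in paraxial mesoderm. It was high on 1 crest array and low on no array. Sdhb, the iron-sulphur subunit, was 1, 1.48 and 1.14 in neuroepithelium, 0.0128, 1.16, 0.493, 0.0505 and 0.422 in neural crest, and 0.957, 1.11 and 0.0166 in paraxial mesoderm. It was low on 2 crest arrays and 1 paraxial mesoderm array and on none of neuroepithelium. Of the membrane anchors, Sdhc was low on neuroepithelium array 2 (0.0405), neural crest array 1 (0.0496) and paraxial mesoderm array 1 (0.172), while Sdhd was high on neural crest arrays 3 (10.3) and 5 (5.87) and paraxial mesoderm array 2 (6.57) and low on none. No array had more than 2 of the 4 subunits low.

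In complex III, the low values were spread over 7 of its 8 genes, with Uqcrq as the one never low. Uqcrc2, a core subunit, was low on neural crest arrays 3 (0.0852) and 4 (0.0757) and paraxial mesoderm array 3 (0.0292). Uqcrfs1, the Rieske iron-sulphur protein, was low on paraxial mesoderm array 3 alone (0.0128), and on the other 10 arrays it lay between 0.748 and 1.11. Uqcrh, the hinge protein, was low on neural crest array 1 alone (0.01). The single high value of the complex was Uqcr10 on neural crest array 2 (4.34).

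Of the 17 complex V subunits, 14 were low on 1 or 2 arrays each, and Atp5g1, Atp5g2 and Atp5o on none. Atp5a1, the alpha subunit of the catalytic head, was 0.226, 6.26 and 6.79 in neuroepithelium, 0.376, 5.61, 4.92, 0.759 and 5.42 in neural crest, and 8.46, 0.600 and 5.93 in paraxial mesoderm. It was high on 7 of 11 arrays, in all tissues, and gave all 7 high values of the complex. Atp5b and Atp5c1, the beta and gamma subunits, were low on paraxial mesoderm array 3 alone (0.183 and 0.148), an array on which Atp5a1 was high. Atp5d on neuroepithelium array 3 (0.111) and Atp5e on neural crest array 2 (0.194) were also low where Atp5a1 was high. Other subunits were low where Atp5a1 was not high: on neural crest array 1, 6 of the 17 were low and Atp5a1 was 0.376. With Atp5a1 high on 7 of 11 arrays, low values of another subunit will often fall on such an array. Of the 3 genes that encode the identical mature c subunit of the rotor, Atp5g3 was low on neural crest array 1 (0.0106), Atp5g1 was 0.329 there, and Atp5g2 was near its reference on all arrays.

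Atp5k, which encodes the small e subunit of complex V, was low on neuroepithelium array 2 (0.0674) and neural crest array 1 (0.0141), and between 0.406 and 1.39 elsewhere. Promoters are shown for it, for the assembly gene Ndufaf4 and for Ndufs7, as examples of a gene with low arrays, a gene with high arrays and a gene low on 2 neuroepithelium arrays alone, chosen after motif matches were seen. Each line gives the 250 bases before the annotated start, 5′ to 3′ on the gene's strand, from RefSeq on GRCm38.p6. Where RefSeq lists several starts, the first listed was taken. Capitals mark GCGCATG on either strand, part of the binding motif of NRF1, a regulator of respiratory chain genes; the matches on the strands overlap where the motif runs on as a palindrome.
Atp5k: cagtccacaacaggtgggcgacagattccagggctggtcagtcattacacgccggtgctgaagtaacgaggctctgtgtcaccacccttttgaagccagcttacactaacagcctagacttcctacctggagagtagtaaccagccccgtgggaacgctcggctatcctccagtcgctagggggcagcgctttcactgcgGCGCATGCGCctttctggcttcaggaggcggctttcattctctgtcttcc
Ndufaf4: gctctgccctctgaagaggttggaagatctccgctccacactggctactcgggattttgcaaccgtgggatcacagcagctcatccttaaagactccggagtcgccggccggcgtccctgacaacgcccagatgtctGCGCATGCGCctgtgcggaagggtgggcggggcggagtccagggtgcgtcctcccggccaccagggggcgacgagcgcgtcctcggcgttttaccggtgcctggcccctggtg
Ndufs7: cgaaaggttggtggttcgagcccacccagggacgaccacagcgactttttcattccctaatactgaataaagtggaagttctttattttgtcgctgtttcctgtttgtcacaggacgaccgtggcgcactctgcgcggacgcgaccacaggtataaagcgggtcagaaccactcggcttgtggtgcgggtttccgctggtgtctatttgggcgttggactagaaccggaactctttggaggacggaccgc
The windows lie at chr5:108434400-108434649 on the minus strand for Atp5k, chr4:24897833-24898082 on the plus strand for Ndufaf4 and chr10:80249199-80249448 on the plus strand for Ndufs7. The first base of the match stands at position -50 in Atp5k and -113 in Ndufaf4, counted from the start, and Ndufs7 has no match in this window. The motif was found in 11 of the 83 windows available for these genes (13.3%). It was found in 896 of 27025 windows of the RefSeq promoter set (3.32%), which was not limited to the measured genes. A GABP motif, CCGGAAG on either strand, was found in 16 of 83 windows (19.3%), against 7.05% of all windows. The printed windows hold no GABP match. The 11 genes with the NRF1 motif did not share a pattern: Atp5g2 and Cox6a1 were near their reference on all arrays, Atp5k, Atp5l, Cox5b, Ndufa6, Ndufa8, Ndufb6 and Sdhb were each low on some array, Ndufaf4 was high on 5 and Ndufb6 on 5 as well as low on 2, and Ndufa11 ranged from 0.268 to 1.13.

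The assembly genes of complex I were never low. Ndufaf1, which acts early in complex I assembly, was high on paraxial mesoderm array 1 alone (31.3), as was Ndufaf5 (50.6). Ndufaf3, a binding partner of Ndufaf4, was 15.3, 1.09 and 0.776 in neuroepithelium, 0.855, 0.840, 44.4, 31.3 and 6.12 in neural crest, and 44.7, 0.840 and 1.02 in paraxial mesoderm. Ndufaf3 was high on 1 of 3, 3 of 5 and 1 of 3 arrays. Ndufaf6 reached 101 on neural crest array 4, and was also high on neuroepithelium array 1 (7.97) and neural crest array 3 (6.71). Ndufaf7, a methyltransferase that acts on a complex I subunit, was high on paraxial mesoderm arrays 1 (4.53) and 2 (38.4) and between 0.917 and 1.08 on the others.

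The assembly genes of complex II were high on few arrays each. Sdhaf1 was high on neural crest array 5 (44.9) and paraxial mesoderm arrays 1 (13.9) and 3 (5.81). Sdhaf2, which is needed to attach flavin to Sdha, was high on neuroepithelium array 1 (12.6), neural crest arrays 4 (16.5) and 5 (30.6) and paraxial mesoderm array 1 (32.9). Sdhaf3 was high on neural crest array 5 alone (21.7). Neural crest array 2, on which Sdha was high, was not among these arrays, but 1 of the 2 probes of Sdhaf4 was high there (29.8, against 1.11 for the other).

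Among the assembly genes, those of complex IV were the group with both high and low values. Cox18, which inserts part of a mitochondrially encoded subunit into the membrane, was high on neuroepithelium array 1 (54.3), neural crest arrays 2 (74.7), 3 (51.4) and 5 (7.80) and paraxial mesoderm array 1 (36.3). Cox14 was high on neuroepithelium array 1 (20.6) and neural crest arrays 2 (14.0), 3 (19.2) and 5 (15.2). The arrays high for Cox14 were thus all high for Cox18 as well. Cox11, a copper-inserting factor, was low on neuroepithelium arrays 1 (0.0326) and 2 (0.0303), neural crest array 2 (0.0598) and paraxial mesoderm array 2 (0.0304), and reached 3.34 on neural crest array 4. Cox19 was low on 4 arrays (0.105 to 0.145) and high on neuroepithelium array 3 (4.85) and neural crest array 5 (4.58). Cox10, which makes heme for the complex, was high on paraxial mesoderm array 1 alone (19.2).

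Several complex IV subunits exist as a common form and a form known for particular tissues or conditions. None of the common forms named here was high on any array, and none of the others was low on any. Cox4i1, the common form, ranged from 0.688 to 1.16, whereas Cox4i2, known from lung and for induction by low oxygen, was high on neuroepithelium array 2 (38.0) and paraxial mesoderm array 3 (34.7) and between 0.872 and 1.35 elsewhere. Cox7a2 ranged from 0.850 to 1.11, and Cox7a1, the heart and muscle form, was high on neuroepithelium array 3 alone (38.2). Cox6a1 ranged from 0.550 to 1.25, and its muscle form Cox6a2 was near its reference on all arrays, as were Cox8b and Cox8c. Cox8a was low on neural crest array 1 alone (0.0310).

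The pair Cox6b1 and Cox6b2 differed in the same manner. Cox6b1 was 1.08, 0.335 and 1.19 in neuroepithelium, 0.0121, 1, 0.469, 0.938 and 1.16 in neural crest, and 1.04, 0.0164 and 0.912 in paraxial mesoderm. Cox6b2, the form known from testis, was 0.896, 0.895 and 0.795 in neuroepithelium, 1.02, 0.986, 0.946, 1.44 and 0.831 in neural crest, and 45.2, 19.7 and 1 in paraxial mesoderm. On paraxial mesoderm array 2 the common form was low and the other high, while on paraxial mesoderm array 1 the common form was near its reference. Ndufa4 was low on neural crest array 1 alone (0.01), and Ndufa4l2, known for induction by low oxygen, was high on paraxial mesoderm arrays 2 (10.3) and 3 (87.1). No gene of these pairs had a high array in neural crest.

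**Figure D4:**
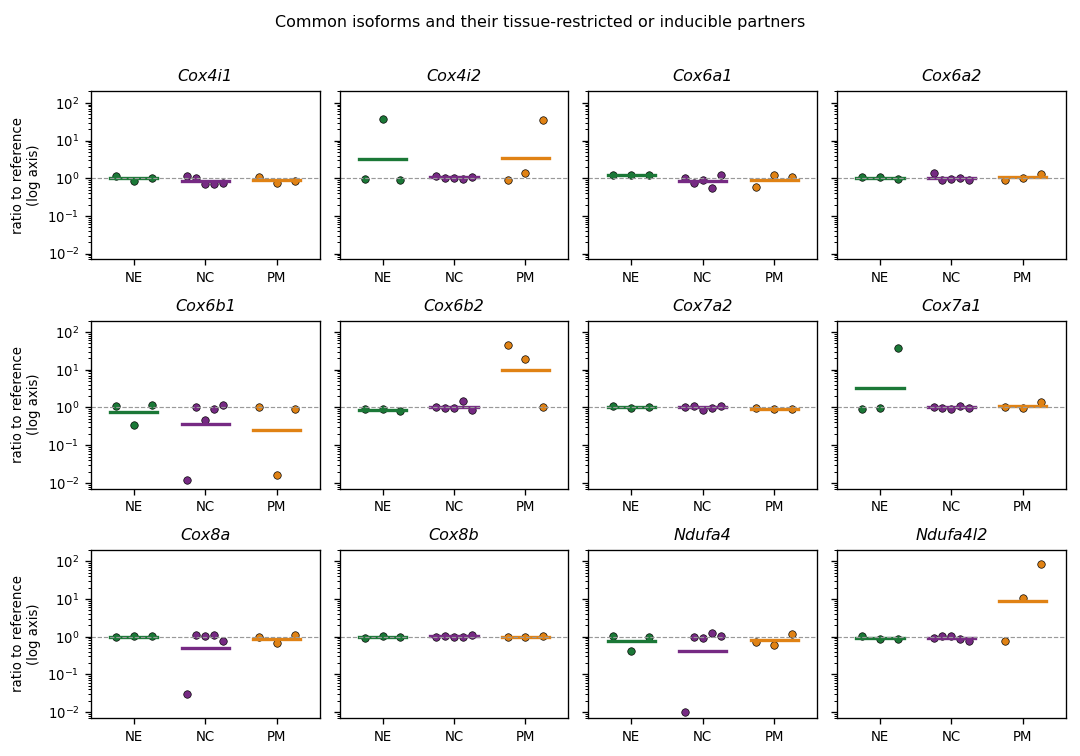
Points give the ratio to the gene's own reference on each array (log axis, dashed line at 1) for common isoforms and their partners, by tissue (NE neuroepithelium, NC neural crest, PM paraxial mesoderm), and lines are geometric means. Cox4i2, Cox6b2, Cox7a1 and Ndufa4l2 each have 1 or 2 high arrays (10.3 to 87.1), while Cox4i1 and Cox7a2 lie close to 1 throughout.

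The tissues were then compared gene by gene with limma, fitted over all 19938 genes. None of the 101 genes passed an adjusted p of 0.05. In neural crest against neuroepithelium 0 passed, against 0.0301% of all genes (0.01% higher and 0.0201% lower), and 5 had an unadjusted p under 0.05 (4.95%), against 2.79% of all genes. In neural crest against paraxial mesoderm 0 passed, against 0.01%, and 6 had an unadjusted p under 0.05 (5.94%), against 2.89%. In paraxial mesoderm against neuroepithelium 0 passed, against 0.015%, and 8 had an unadjusted p under 0.05 (7.92%), against 2.48%. The F test for any difference among the 3 tissues passed 0, against 0.0301%, with 6 at an unadjusted p under 0.05 against 2.57%. The lowest adjusted p in limma among the 101 genes was 0.9994, in the F test.

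Few genes had tissues that did not overlap. In neural crest against neuroepithelium 1 gene lay higher without overlap, against 1.45% of all genes, and 2 lower, against 1.53%. In neural crest against paraxial mesoderm 1 lay higher, against 1.46%, and 1 lower, against 1.2%. In paraxial mesoderm against neuroepithelium 3 lay higher, against 2.82%, and 6 lower, against 4.02%. The comparisons share arrays.

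Ndufs7, a core subunit next to the coenzyme Q site of complex I, was 0.0275, 0.0220 and 0.470 in neuroepithelium, 1.08, 1.02, 0.450, 0.747 and 0.777 in neural crest, and 1.06, 1 and 0.945 in paraxial mesoderm. It was low on 2 of 3 neuroepithelium arrays and on no other array, and its value on neuroepithelium array 3 lay inside the crest range. The log2 difference was 3.93 ± 1.00 (SE) for paraxial mesoderm minus neuroepithelium, with an adjusted p = 0.9999 in limma. It was 3.56 ± 0.89 (SE) for neural crest minus neuroepithelium, with an adjusted p = 1 in limma. Without neuroepithelium array 3 Ndufs7 passed both comparisons, with adjusted p = 0.000918 and 0.000705 in limma, so that array decides the call. With ratios under 0.1 raised to 0.1 the difference from paraxial mesoderm was 2.58.

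Cox6b2, with the values given above, was high on 2 of 3 paraxial mesoderm arrays and near its reference on all others. Its log2 difference was 3.48 ± 1.14 (SE) for paraxial mesoderm minus neuroepithelium (adjusted p = 0.9999 in limma) and -3.23 ± 1.02 (SE) for neural crest minus paraxial mesoderm (adjusted p = 0.9998 in limma). Without paraxial mesoderm array 3 it passed both, with adjusted p = 0.000675 and 0.000504 in limma. Of the high arrays, paraxial mesoderm array 1 was the one with 6 of 6 high erythroid markers, and array 2 had 0 of 6. Array 2 had 3 of 7 surface ectoderm markers high, with a summed ratio of 192, and 2 of 10 neuroepithelium markers. Array 1 had 0 of either list. The part of such cells in the values of Cox6b2 was not tested.

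Of the 101 genes, those high on all arrays of a tissue were found in neuroepithelium, and they were 3 (2.97%), against 0.321% of all genes. None was high on every neural crest array, against 0.0351%, or on every paraxial mesoderm array, against 0.0802%. None was low on every neuroepithelium array, against 0.0652%, or on every array of another tissue, against 0.0% in neural crest and 0.01% in paraxial mesoderm. All 3 genes high throughout neuroepithelium were assembly genes. Ndufaf2, a chaperone of late complex I assembly, was 81.7, 66.9 and 17.3 in neuroepithelium, 0.809, 3.10, 44.2, 0.892 and 3.22 in neural crest, and 10.3, 0.933 and 0.846 in paraxial mesoderm. Neuroepithelium lay above every paraxial mesoderm array and overlapped neural crest through crest array 3. The log2 difference was -4.50 ± 1.58 (SE) for paraxial mesoderm minus neuroepithelium and -3.85 ± 1.41 (SE) for neural crest minus neuroepithelium, with adjusted p = 0.9999 and 1 in limma.

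Ndufaf4, whose promoter is printed above, was 5.72, 25.2 and 19.5 in neuroepithelium, 0.780, 0.792, 1.74, 0.956 and 25.7 in neural crest, and 13.7, 1 and 1.53 in paraxial mesoderm. Outside neuroepithelium it was high on neural crest array 5 and paraxial mesoderm array 1, the arrays with the most high genes overall. Cox17, a copper chaperone for complex IV, was 10.7, 11.5 and 5.38 in neuroepithelium, 0.132, 1, 2.53, 1.85 and 11.6 in neural crest, and 12.0, 0.163 and 0.111 in paraxial mesoderm. Its high arrays were the same 5 as those of Ndufaf4, and it was low on 3 of the others. The log2 differences from neuroepithelium were -2.87 ± 1.33 (SE) in neural crest and -2.36 ± 1.49 (SE) in paraxial mesoderm for Ndufaf4, and -2.56 ± 1.76 (SE) and -3.86 ± 1.96 (SE) for Cox17, and none passed in limma. For Cox17 these were -1.68 without neural crest array 1 and -6.02 without paraxial mesoderm array 1.

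Of accessory complex I subunits, Ndufa12 was 4.71, 3.41 and 2.84 in neuroepithelium, 0.370, 0.574, 0.554, 1 and 2.28 in neural crest, and 2.65, 3.99 and 0.232 in paraxial mesoderm. Every neuroepithelium array lay above every crest array, by a mean of 2.22 on the log2 scale (-2.22 ± 0.93 (SE) for neural crest minus neuroepithelium, adjusted p = 1 in limma). Ndufa10 was 0.321, 1.04 and 1 in neuroepithelium, 3.78, 2.88, 3.48, 1.13 and 2.30 in neural crest, and 2.55, 0.184 and 0.0484 in paraxial mesoderm. All crest arrays lay above neuroepithelium, with a log2 difference of 1.85 ± 1.12 (SE) that did not pass in limma (adjusted p = 1), while paraxial mesoderm spanned both.

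A further 3 accessory subunits of complex I lay lower in paraxial mesoderm than in neuroepithelium without overlap. Ndufv3 was 2.33, 2.71 and 2.28 in neuroepithelium, 0.541, 1.61, 0.673, 1.38 and 2.41 in neural crest, and 0.502, 1 and 0.540 in paraxial mesoderm. It varied least within tissues among them, with a log2 difference of -1.91 ± 0.54 (SE) and an adjusted p = 0.9999 in limma. Ndufa5 was 1.28, 1.18 and 1.62 in neuroepithelium, 2.26, 0.295, 1.03, 2.23 and 1.60 in neural crest, and 1, 0.0307 and 0.0467 in paraxial mesoderm, a log2 difference of -3.58 ± 1.26 (SE). Ndufb6 was 2.77, 6.87 and 4.05 in neuroepithelium, 0.0456, 3.51, 4.58, 5.02 and 4.32 in neural crest, and 0.312, 1 and 0.0331 in paraxial mesoderm, a log2 difference of -4.29 ± 1.91 (SE). The paraxial mesoderm values of Ndufa5 and Ndufb6 were spread over more than the distance to neuroepithelium, and neither passed in limma (adjusted p = 0.9999).

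**Figure D5:**
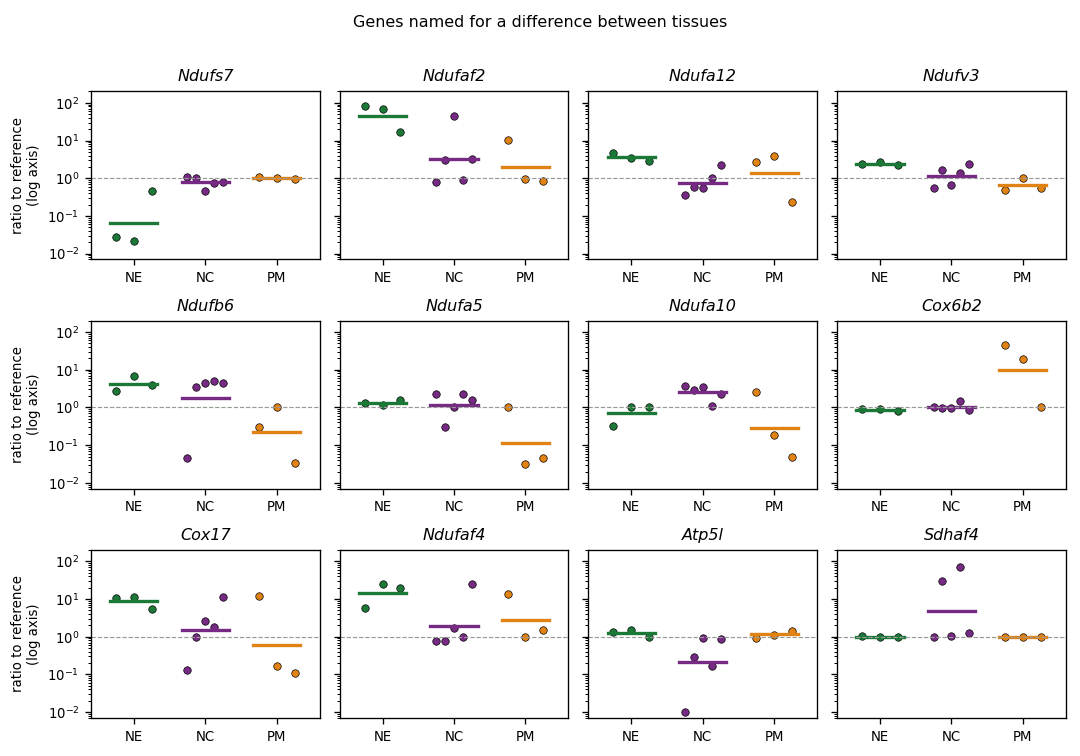
Points give the ratio to the gene's own reference on each array (log axis, dashed line at 1) for 12 genes named for a difference between tissues, and lines are geometric means of neuroepithelium (NE), neural crest (NC) and paraxial mesoderm (PM). Most separations rest on 1 or 2 arrays, such as the low neuroepithelium values of Ndufs7 (0.0275 and 0.0220) and the high paraxial mesoderm values of Cox6b2 (45.2 and 19.7).

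Smaller separations were measured for other genes. Atp5l, the g subunit of complex V, was 1.33, 1.50 and 1 in neuroepithelium, 0.01, 0.293, 0.912, 0.166 and 0.889 in neural crest, and 0.932, 1.13 and 1.44 in paraxial mesoderm. All crest arrays lay below both other tissues, by log2 differences of -2.59 ± 1.32 (SE) and -2.46 ± 1.32 (SE) that did not pass in limma (adjusted p = 1 and 0.9998). Without neural crest array 1, where Atp5l stood at the lowest ratio, the differences were -1.50 and -1.37. The 6 probes of Atp5l differed by at most 0.29 on the log2 scale on any array. Sdhaf4, which helps mature Sdha, was near its reference in neuroepithelium and paraxial mesoderm and was 1, 29.8, 1.05, 70.8 and 1.27 in neural crest. Its other probe read 1.11 and 1.39 where this one read 29.8 and 70.8, so the gene's probes disagree, and with that probe the log2 difference of 2.30 ± 1.47 (SE) for neural crest minus paraxial mesoderm was 0.30. Ndufb11 disagreed likewise on paraxial mesoderm array 3 (0.868 and 0.0526), and its log2 difference of -0.35 and those of Ndufa7 (-1.62) and Atp5pb (0.23) between paraxial mesoderm and neuroepithelium, also without overlap, did not pass in limma. The difference of Ndufa7 was -0.49 without paraxial mesoderm array 1, and that of Ndufb11 was -1.61 with its other probe.

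Across the whole set, the 101 genes had a median log2 difference of -0.17 for neural crest minus neuroepithelium, with 36 of 101 positive, against 0.00 and 50.2% positive over all genes. The median was -0.27 over the 82 subunits, of which 22 were positive, and 0.29 over the 19 assembly genes, of which 14 were positive. Without neural crest array 1 the median over the 101 genes was 0.01, so that array decides its sign. By complex it was -0.49 for I, 0.82 for II, -0.29 for III, -0.14 for IV and -0.22 for V. For neural crest minus paraxial mesoderm the median was -0.02 (49 positive), and by complex 0.13, 0.15, 0.16, -0.02 and -0.28. For paraxial mesoderm minus neuroepithelium it was -0.07 (42 positive), by complex -0.14, 0.08, -0.47, -0.13 and 0.04, and 0.04 over the 101 genes without paraxial mesoderm array 3.

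Related genes outside the rule did not pass in limma in any comparison either: 0 of each list rose and 0 fell. The mitochondrially encoded ND3 and COX2, the 2 measured here, were near their reference on all arrays, at 0.520 to 1.52 and 0.664 to 1.10. Cytochrome c, Cycs, was also near on all arrays, while Cyc1, the cytochrome c1 subunit of complex III, was low on neuroepithelium array 2 (0.0508) and paraxial mesoderm array 3 (0.141). Among 31 further assembly factors 14.1% of values were high and 4.69% low, Surf1 among them, which was high on 3 arrays and reached 46.2 on neuroepithelium array 3 and 25.6 on neural crest array 5. Of 12 coenzyme Q synthesis genes 20.5% of values were high and 0 low, and of 14 transcriptional regulators of mitochondrial genes 9.74% were high and 0 low. Of 17 citric acid cycle genes 20.9% of values were high and 4.81% low, and of 19 glycolysis genes 5.74% and 3.35%, beside the 8.46% and 10.2% of the 101 genes and the 4.46% and 1.15% of all genes.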

How the data were processed

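The deposited table holds a linear ratio per probe and array. RMA and mm9 are listed, per the submitters' processing notes, with no version. The ratios are not RMA log intensities, and the sources used here do not say how the authors scaled them. A ratio of exactly 1 occurred for 2156 to 5089 probes on 8 arrays and for 2 to 5 probes on neuroepithelium array 2 and neural crest arrays 3 and 5. For Atp5b, Cox14, Cox17 and Ndufa1, the array at exactly 1 lay in the middle of those 8 arrays ranked by value. The reference therefore seems to be a middle value of those arrays. Of 35557 probes, 28856 had values and 21789 of these had 1 symbol. All 101 genes matched RefSeq, and 127 probes covered them. The 7 probes of the rule with several symbols were left out. Genes with near-identical copies, as several small subunits have, may share signal. Log2 of the ratio was taken with no pseudocount. The 3 group means were fitted over 11 arrays with limma 3.58.1 (R 4.3.3; lmFit and eBayes, no trend, two-sided) and adjusted by Benjamini-Hochberg over 19938 genes at 0.05. The script was tested on simulated data. Promoters are RefSeq sequences on GRCm38.p6, available for 83 genes. The NRF1 motif was shortened after a longer form of it had been searched, and the 3 promoters printed were chosen after its matches were seen. Genes and lists were chosen with earlier results of these data known. Genes named are those past the threshold, the 8 largest differences each way without overlap, those high or low on all arrays of a tissue, the isoform groups, the 4 Sdh subunits and the 3 highest and lowest per array. Genes named beyond these, such as Ndufv1, Uqcrh, Cox10, Cox14, Cox19, Sdhaf3 and Ndufaf1, were chosen after their values were seen. Alternatives tried were the probe of a gene, a floor of 0.1, a pseudocount of 0.1, centring, quantile normalization, a trend, robust eBayes, array weights, a 2-fold filter, fits of 2 groups, a replicate block and leaving out arrays.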

Additional observations from a re-analysis of the deposited data

Results flagged for a closer look

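Of 43 neural crest values tested for an array far from the other 4, 13 stood apart by Dixon's test (critical ratio 0.71). That ratio gives about 1 in 20 by chance for independent, normally distributed values. Most of the 13 lay on neural crest array 1 and some genes were named for their values here, so that rate does not apply. On neural crest array 1, 9 ratios were the lowest by that gap: Cox6b1 (0.0121, others 0.469 to 1.16), Cox8a (0.0310, others 0.791 to 1.12), Ndufa4 (0.01, others 0.923 to 1.26), Atp5g1 (0.329, others 1.06 to 1.21), Atp5g3 (0.0106, others 0.922 to 1.23), Sdhc (0.0496, others 1 to 2.37), Atp5pb (0.112, others 0.990 to 1.12), Ndufb6 (0.0456, others 3.51 to 5.02) and Ndufb11 (0.0128, others 0.848 to 1.55). On the same array Cox6a2 was the highest, at 1.36 against 0.895 to 1, a gap that is small in size. Sdha stood apart on neural crest array 2 (17.4, others 0.850 to 1.40) and Ndufaf4 on neural crest array 5 (25.7, others 0.780 to 1.74). The median log2 ratio of the 19 assembly genes was 1.74 on neural crest array 5 and between -0.00 and 0.06 on the other crest arrays. Why these arrays stand apart was not tested.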

How the results depend on the processing

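No gene of the 101 passed in limma under 21 of the 24 alternatives. With each array left out in turn the number that passed ran from 0 to 1 in all 3 comparisons and in the F test: Ndufs7 passed without neuroepithelium array 3 and Cox6b2 without paraxial mesoderm array 3. With neural crest array 1 and paraxial mesoderm array 3 both left out, a setting chosen after seeing the data, 1 gene, Cox6b2, passed against neural crest, against neuroepithelium (log2 difference 5.12, adjusted p = 0.00396 in limma) and in the F test, and the median difference over the 101 genes was 0.0104 for neural crest minus neuroepithelium and 0.0373 for paraxial mesoderm minus neuroepithelium. Among genes at least 2-fold off on some array, the median difference was -0.272 for neural crest minus neuroepithelium and -0.113 for neural crest minus paraxial mesoderm, with fewer genes in the median by construction. With each array left out in turn the medians ran from -0.295 to 0.0104, from -0.137 to 0.117, and from -0.230 to 0.0373 for paraxial mesoderm minus neuroepithelium, so each median changed sign. With the replicate number as a block, 0 genes passed in each comparison, and the medians were -0.23, -0.07 and -0.07. The labels do not say whether the numbers pair the arrays. Deviations of same-numbered arrays correlated at a mean r of -0.05 over 9 pairs (-0.15 to 0.05). Those of other arrays correlated at 0.01 over 30 pairs (-0.16 to 0.17). Correlations over all genes, most of them near 1, cannot exclude that same-numbered arrays share an embryo. The number of genes at an unadjusted p under 0.05 ranged over the alternatives from 1 to 9, 3 to 9 and 4 to 13 in the 3 comparisons, and from 3 to 12 in the F test. Of the differences in the report, 19 were re-estimated under every alternative, and none of these changed sign. The differences of Ndufs8, of Ndufs7 between neural crest and neuroepithelium and of Cox6b2 between neural crest and paraxial mesoderm were not among them. Those 19 were chosen because the tissues did not overlap or the gene was high on all neuroepithelium arrays. Without overlap, leaving out an array, a floor or a pseudocount cannot reverse a sign. The constant sign is therefore largely set by that choice. The number of arrays limits every comparison, ratios give no level or background, and a ratio of 0.01 has no order below it.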

Other observations

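Probes with several symbols were kept out of the counts, and their ratios resembled those of single genes. Both probes of Ndufb4 and its copy Ndufb4b, accessory subunits of complex I, were low on neuroepithelium array 2 (0.0109 and 0.0105), neural crest array 1 (0.01 on both) and paraxial mesoderm array 2 (0.0133 and 0.0114), and lay between 0.373 and 1.56 elsewhere. The 3 probes of Cox7c and Gm12338 stayed between 0.508 and 1.30 on all arrays. The probe of Ndufs5 and its pseudogene was low on neural crest array 2 (0.0450) and paraxial mesoderm array 3 (0.0331), and the single-symbol probe of Ndufs5 was 0.174 and 0.256 there. The probe of Cox16 and Gm20498 was low on neural crest arrays 1 (0.177) and 5 (0.246), the latter an array on which 0 of the 101 genes were low.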
